A study of Mus musculus with 4 samples.

Results

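Cytochromes P450 are named for families and subfamilies: the symbol Cyp is followed by a family number, a subfamily letter and a gene number. The members here are 95 genes with such a name, out of 19938 protein-coding genes measured. Of the 99 rows with such a symbol, the 3 Cyp26 genes were left out, as was Cyp2d13, which RefSeq lists as a pseudogene and which had 0 counts. Cyp51, Tbxas1 and Ptgis also encode enzymes of the superfamily, but their symbols have another form. RNA came from 4 cultures labelled hepatocyte-like cells, each differentiated on its own with the advanced hepatic-inducing cocktail (A-HIC). The starting cells were E14TG2a, an embryonic stem cell line of the mouse. The line is male and has no working Hprt1 gene. All 4 libraries share the line and the cocktail, and form 1 group without an untreated control; library 1 is the replicate that the labels number 1, and so on to library 4. The question was how hepatic and how mature such cells are, and published hepatocyte data that the submitters set beside these cultures are not analysed here.

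P450 enzymes hold a haem group and use electrons from a partner protein to put an oxygen atom onto their substrate. Most sit in the endoplasmic reticulum and draw electrons from the reductase Por, while a few sit in mitochondria and use ferredoxin and its reductase. In the adult liver, families 1 to 3 clear drugs and pollutants, family 4 oxidises fatty acids, and others turn cholesterol into bile acids. Further members make steroid hormones in the adrenal gland and gonads or switch vitamin D on and off.

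The libraries held 29518642 to 40154964 counts. Levels are given in TPM, the share of transcripts that a gene takes after scaling for gene length and library size. Markers of hepatocytes were scarce in these libraries: the summed level of 13 listed hepatocyte markers was 8.43, 61.2, 9.70 and 26.6 TPM in libraries 1 to 4, and 3 of them were called above 1 TPM. G6pc1, a glucose-releasing enzyme of hepatocytes and the remaining listed marker, had 0 counts. The defining marker Alb, serum albumin, had 11, 171, 0 and 12 counts. By contrast, 11 of 11 pluripotency markers were called above 1 TPM, with sums of 8384, 4708, 7693 and 5702 TPM, as were 10 of 10 parietal endoderm markers, with sums of 3284, 10471, 3981 and 7945 TPM. Above 1 TPM were also 9 of 10 fibroblast markers, with sums of 1691, 3711, 1481 and 2541 TPM, and 6 of 7 endothelial markers. The same held for 6 of 6 cholangiocyte markers, with sums of 1421, 829, 1313 and 1376 TPM. Most of that level was Spp1, with a mean of 994 TPM. Of visceral endoderm markers 8 of 9 were above, and of trophoblast markers 9 of 10. Leukocyte, intestine and adrenal or gonad markers had 3 of 6, 3 of 6 and 3 of 8 above. Of all protein-coding genes 63.8% passed the same test, so that the hepatocyte list, with 3 of 13, lay below that share. Given these hepatocyte markers, the label is used here only as a name for the cultures. In RNA from whole cultures, fewer cells of a type and less RNA per cell cannot be told apart.

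Most P450 genes were undetected at this depth or lay far below 1 TPM, and a small group of them held nearly all of the signal. Each level was tested against 1 TPM by edgeR's quasi-likelihood test, two-sided, with Benjamini-Hochberg adjustment over all protein-coding genes at 0.05. By this test 18 of the 95 members (18.9%) were above 1 TPM, against 63.8% of all protein-coding genes, and 71 were below, against 28.1%. The other 6 were not called. In all 4 libraries 16 members reached 1 TPM, a rule that 63.4% of protein-coding genes met. No more than 3 counts in any library were found for 55 members (57.9%), against 16.8% of protein-coding genes, and 40 of these had 0 counts throughout (42.1%), against 12.3%. The median member stood at 0.0267 TPM and the median protein-coding gene at 7.58 TPM.

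The 95 genes together made up 204, 246, 211 and 226 TPM in libraries 1 to 4, a mean of 222 ± 18.7 (SD, n = 4). Library 2 was the highest and library 1 the lowest, and the shares of all TPM lay between 0.0204% and 0.0246%. Cyp20a1 alone took 29.2% of the summed level on average, Cyp20a1 and Cyp1b1 45.0%, and the 5 highest genes 71.9%. The 18 genes called above 1 TPM took 96.5%.

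**Figure D1:**
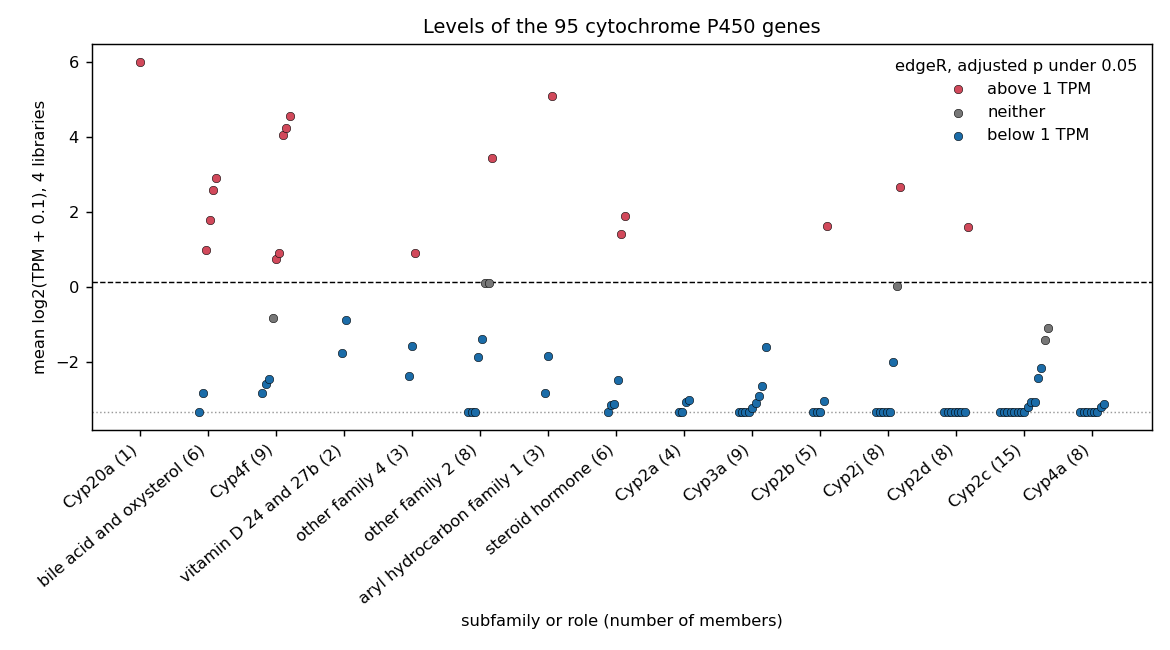
Each point is 1 of the 95 P450 genes, placed by subfamily or role (number of members in brackets) against its mean of log2(TPM + 0.1) over 4 libraries. The dashed line marks 1 TPM and the dotted line 0 TPM; colours give the edgeR call. All 8 Cyp4a genes lie near the dotted line, while 5 of the 9 Cyp4f genes lie above the dashed one.

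The highest member was Cyp20a1, an orphan P450 whose substrate is not established. It stood at 53.6, 77.3, 61.4 and 67.4 TPM in libraries 1 to 4, a mean of 64.9 ± 10.02 (SD, n = 4), from 1106 to 1798 counts a library. Library 2 was the highest and library 1 the lowest. Its log2 ratio to 1 TPM was 6.03 ± 0.05 (SE; edgeR, adjusted p = 2.9e-13).

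Second came Cyp1b1, which oxidises estradiol, retinoids and polycyclic hydrocarbons, acts mainly outside the liver and is induced through the aryl hydrocarbon receptor (AhR). Its levels were 21.3, 52.4, 29.9 and 39.7 TPM, a mean of 35.8 ± 13.4 (SD, n = 4) and a log2 ratio to 1 TPM of 5.17 ± 0.10 (SE; edgeR, adjusted p = 1.13e-10). Library 2 held 2.46 times the level of library 1, the widest range among the 5 highest members. The ranges of Cyp20a1 and Cyp1b1 did not overlap, although the lowest Cyp20a1 library (53.6 TPM) lay just above the highest Cyp1b1 library (52.4 TPM).

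The other members of family 1, Cyp1a1 and Cyp1a2, are the AhR-induced enzymes of the exposed and the adult liver. Cyp1a1 had 21, 2, 2 and 4 counts, or 0.728, 0.0706, 0.0910 and 0.138 TPM. Library 1 stood apart from the other 3. Its mean of 0.257 ± 0.316 TPM (SD, n = 4) was called below 1 TPM (edgeR, adjusted p = 0.0301), but not without library 2, 3 or 4 (adjusted p = 0.0615, 0.0805 and 0.0880). Cyp1a2 had 3, 0, 1 and 0 counts.

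**Figure D2:**
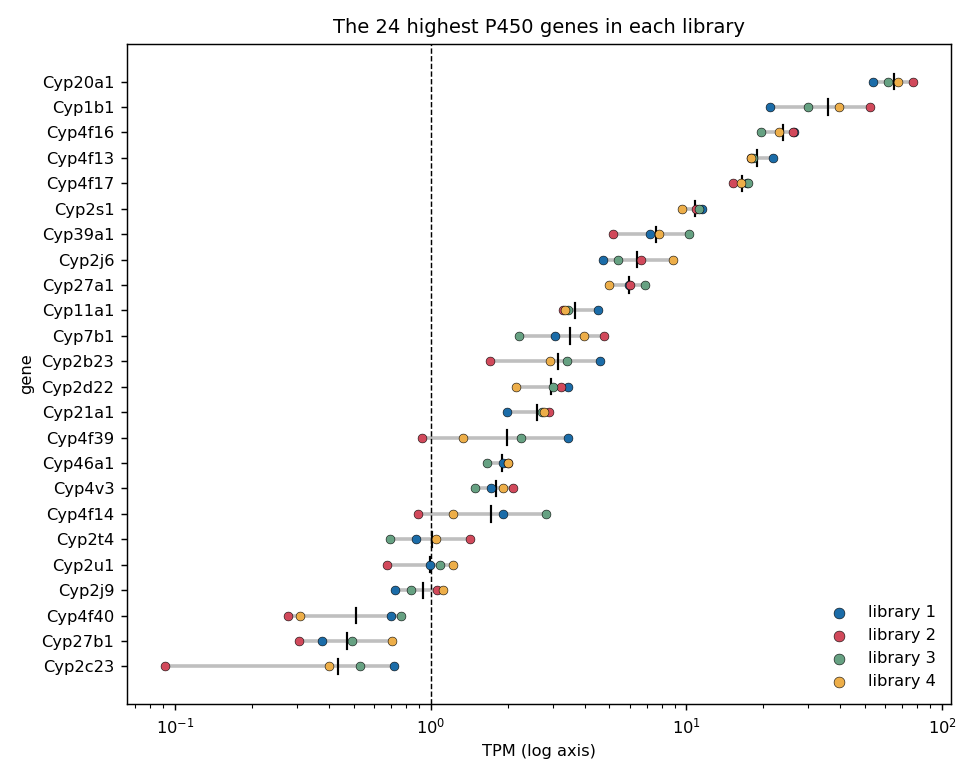
The 24 P450 genes with the highest means are shown in each library on a logarithmic TPM axis, with grey bars for the range over libraries, black ticks for the mean and a dashed line at 1 TPM. Cyp20a1 and Cyp1b1 head the order, and Cyp2c23 spans the widest range, from 0.0911 to 0.717 TPM.

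Next in order were 3 genes of the Cyp4f subfamily, whose enzymes hydroxylate the far end of fatty acids and of the inflammatory lipid leukotriene B4. Cyp4f16 stood at 26.5, 26.1, 19.6 and 23.1 TPM (mean 23.8 ± 3.20, SD, n = 4). Cyp4f13 stood at 21.8, 18, 18.2 and 17.9 TPM (mean 19 ± 1.89, SD, n = 4), with library 1 above the other 3. Cyp4f17 stood at 17.3, 15.3, 17.5 and 16.3 TPM (mean 16.6 ± 1.03, SD, n = 4). The ranges of Cyp4f16 and Cyp4f13 overlapped, and those of Cyp4f13 and Cyp4f17 did not. All 3 were called above 1 TPM (edgeR, adjusted p of 8.04e-12, 5.63e-12 and 1.31e-11).

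The Cyp4f subfamily was thus the one with the most members called above 1 TPM: 5 of 9 were above, 3 below and 1 was not called. Its share above, 55.6%, was no larger than the 63.8% of all protein-coding genes. Its summed level was 63.8 ± 5.37 TPM (SD, n = 4), with library 1 at 71.8 TPM and the other 3 between 60.4 and 61.6 TPM. Cyp4f39, the counterpart of an enzyme that makes very long hydroxylated fatty acids for the skin barrier, stood at 3.45, 0.930, 2.26 and 1.34 TPM (edgeR, adjusted p = 0.0117). Cyp4f14, a leukotriene hydroxylase of the adult liver, stood at 1.92, 0.894, 2.83 and 1.23 TPM (edgeR, adjusted p = 0.0319). Both genes lay under 1 TPM in library 2 and were highest in libraries 1 and 3. The Cyp4f39 call was lost without library 1 (adjusted p = 0.102), and the Cyp4f14 call without library 1 or library 3 (adjusted p = 0.0894 and 0.234). Cyp4f40 was not called, at 0.512 ± 0.255 TPM (SD, n = 4), while Cyp4f15, Cyp4f37 and Cyp4f18 were below 1 TPM, the last 2 with 3 counts or fewer in every library.

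Cyp4f genes of opposite level lay beside each other on chromosome 17. There Cyp4f16 lies next to Cyp4f37, with 474 to 841 counts for the first and 0 to 3 for the second. Of all 100-base stretches in the exons of Cyp4f16, 5.95% recur in another gene, nearly all of them in Cyp4f37, the highest share among the members called above 1 TPM.

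Among the remaining fatty acid enzymes of family 4, no Cyp4a gene was detected. By the same rule 16.8% of all protein-coding genes were not detected, and 12.3% had 0 counts. The 8 Cyp4a genes, which hydroxylate fatty acids in liver and kidney and respond to the lipid receptor Ppara, had 0, 1, 0 and 2 counts in sum in libraries 1 to 4, and Cyp4a14, Cyp4a12a, Cyp4a29, Cyp4a30b, Cyp4a31 and Cyp4a32 had 0. Cyp4v3, the counterpart of a fatty acid hydroxylase that is mutated in a crystalline eye disease, was called above 1 TPM at 1.73, 2.09, 1.5 and 1.91 TPM (edgeR, adjusted p = 0.00168). Cyp4x1 and Cyp4b1 were below 1 TPM, at 0.244 and 0.150 TPM. The Cyp4b1 call was lost without library 3 (adjusted p = 0.0557).

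Drug-clearing subfamilies were nearly empty. None of the Cyp2a, Cyp2c and Cyp3a genes was above 1 TPM, and 4 of 4, 13 of 15 and 9 of 9 were below. Of all protein-coding genes 63.8% were above and 28.1% below. The exceptions, neither above nor below, were Cyp2c23 (0.434 ± 0.263 TPM, SD, n = 4) and Cyp2c69 (0.365 ± 0.249 TPM). The highest of the Cyp3a genes, which take in a wide range of drugs, was Cyp3a13 at 0.196, 0.333, 0.172 and 0.259 TPM, and the highest Cyp2a gene was Cyp2a12, with 0, 0, 4 and 0 counts. Counts of 0 were found for Cyp2a5 and Cyp2a22, for Cyp3a25, Cyp3a41a, Cyp3a41b and Cyp3a59, and for 8 Cyp2c genes (Cyp2c37, Cyp2c38, Cyp2c39, Cyp2c40, Cyp2c50, Cyp2c66, Cyp2c68 and Cyp2c70). Summed levels, as means over the 4 libraries, were 0.0643 ± 0.0757 TPM for Cyp2a, 1.12 ± 0.360 TPM for Cyp2c and 0.410 ± 0.111 TPM for Cyp3a (SD, n = 4).

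In the Cyp2b, Cyp2d and Cyp2j subfamilies, 1 gene each was above 1 TPM and most of its relatives had 0 counts. The shares above were 20%, 12.5% and 12.5%, against 63.8% of all protein-coding genes. The shares with 0 counts were 60%, 87.5% and 62.5%, against 12.3%. Cyp2b23 stood at 4.59, 1.71, 3.42 and 2.93 TPM (edgeR, adjusted p = 0.000122). Its relatives Cyp2b9, Cyp2b10 and Cyp2b13, of which Cyp2b10 is the classical target of the drug receptor Nr1i3 in liver, had 0 counts. Cyp2d22 stood at 3.44, 3.25, 3.02 and 2.16 TPM (edgeR, adjusted p = 1.28e-05), and the other 7 Cyp2d genes (Cyp2d9, Cyp2d10, Cyp2d11, Cyp2d12, Cyp2d26, Cyp2d34 and Cyp2d40) had 0 counts. Cyp2j6, of a subfamily that makes epoxides of arachidonic acid, stood at 4.72, 6.66, 5.42 and 8.86 TPM (edgeR, adjusted p = 1.01e-07). The liver and kidney gene Cyp2j5 and its relatives Cyp2j7, Cyp2j8, Cyp2j11 and Cyp2j12 had 0 counts, and Cyp2j9 was not called at 0.935 ± 0.187 TPM (SD, n = 4). Library 1 was the highest for Cyp2b23 and Cyp2d22 and the lowest for Cyp2j6.

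Outside those subfamilies, the main family 2 gene was Cyp2s1, a P450 of epithelia outside the liver that also responds to AhR. It stood at 11.6, 11, 11.2 and 9.61 TPM, a mean of 10.8 ± 0.849 (SD, n = 4; log2 ratio 3.43 ± 0.06, SE; edgeR, adjusted p = 7.85e-11), and the libraries lay close together. Cyp2t4 and the fatty acid hydroxylase Cyp2u1 lay at the threshold, at 1.01 ± 0.314 and 0.996 ± 0.234 TPM (SD, n = 4), and were not called. Cyp2e1, which oxidises ethanol in pericentral hepatocytes, Cyp2g1 of the nasal lining and Cyp2w1 had 0 counts.

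A list of 43 P450 genes known from adult liver gathers these results. Of its members 5 were above 1 TPM (11.6%, against 63.8% of all protein-coding genes): Cyp39a1, Cyp27a1, Cyp7b1, Cyp4v3 and Cyp4f14. Another 37 were below, and Cyp2c69 was not called. No more than 3 counts in any library were found for 30 (69.8%, against 16.8%), and 22 had 0 counts (51.2%, against 12.3%). For members at 0 counts, 3 counts over all libraries would correspond to 0.0185 to 0.0511 TPM, depending on gene length. This limit covers counting error only and doubles if both ends of a read pair were counted.

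Of the 6 P450 genes of bile acid and oxysterol metabolism 4 were above 1 TPM (66.7%), a share near the 63.8% of all protein-coding genes. Bile acids arise by a classical route, which starts with Cyp7a1 in hepatocytes, and by routes that start from oxysterols made in many tissues. Cyp7a1 had 0 counts, and Cyp8b1, which sets the share of cholic acid, had 2, 2, 0 and 0. The 4 oxysterol enzymes were all called above 1 TPM, and the 6 genes together stood at 19 ± 1.37 TPM (SD, n = 4).

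Among these, Cyp39a1, which hydroxylates an oxysterol of brain origin, was the highest at 7.19, 5.19, 10.3 and 7.79 TPM (edgeR, adjusted p = 4.65e-08). Cyp27a1, the mitochondrial enzyme that oxidises the cholesterol side chain, stood at 5.96, 6.02, 6.89 and 4.99 TPM (edgeR, adjusted p = 7.47e-08). Cyp7b1, the oxysterol hydroxylase of the alternative route, stood at 3.08, 4.77, 2.22 and 3.98 TPM (edgeR, adjusted p = 2.51e-05). Library 3 was the highest for Cyp39a1 and Cyp27a1 and the lowest for Cyp7b1. Cyp46a1, which makes the oxysterol by which neurons export cholesterol, stood at 1.91, 2.00, 1.66 and 2.01 TPM (edgeR, adjusted p = 0.000992).

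Of 11 further listed genes of bile acid synthesis 5 were above 1 TPM (45.5%, against 63.8% of all protein-coding genes), 5 below and 1 was not called. The highest was the peroxisomal enzyme Hsd17b4 at 97.8 ± 7.97 TPM (SD, n = 4), and Hsd3b7 and Akr1c6 had 0 counts. In cholesterol synthesis itself 12 of 12 listed genes were above 1 TPM (again against 63.8%), from Tm7sf2 at 17.9 ± 2.20 TPM to Hmgcs1 at 251 ± 11.4 TPM (SD, n = 4). Its own P450, Cyp51, whose symbol falls outside the pattern, stood at 148, 185, 153 and 157 TPM, above every one of the 95 members in every library.

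Of the 6 P450 genes of steroid hormone synthesis, 2 were above 1 TPM (33.3%, against 63.8% of all protein-coding genes). Cyp11a1, the mitochondrial enzyme that cuts the cholesterol side chain to give pregnenolone, stood at 4.53, 3.30, 3.46 and 3.35 TPM, with library 1 above the other 3. Its mean was 3.66 ± 0.583 TPM (SD, n = 4; log2 ratio 1.88 ± 0.12, SE; edgeR, adjusted p = 7.37e-07). Cyp21a1, which hydroxylates progesterone on the way to corticosterone, stood at 1.99, 2.90, 2.73 and 2.78 TPM, with library 1 below the rest (edgeR, adjusted p = 0.000116).

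The other 4 steroid enzymes were below 1 TPM. Cyp17a1, needed for androgens, had 10, 0, 0 and 4 counts (edgeR, adjusted p = 0.0181, and 0.0520 without library 4). Cyp19a1, which makes estrogens, had 1, 2, 0 and 0 counts, Cyp11b1 had 0, 0, 2 and 0, and Cyp11b2, the aldosterone synthase, had 0. Of 11 other listed genes of steroid synthesis, 5 were above 1 TPM (45.5%, against 63.8% of all protein-coding genes) and 4 below. Star, which brings cholesterol into mitochondria, stood at 4.64 to 6.69 TPM, the mitochondrial protein Tspo was the highest at 97.6 ± 14 TPM (SD, n = 4), and the dehydrogenase Hsd3b1 reached at most 0.137 TPM; Star and Hsd3b1 were chosen after their values were seen. Of 8 listed adrenal and gonad markers 3 (Star, Inha and Insl3) were above 1 TPM (37.5%, against the same 63.8%). The other 5 (Mc2r, Lhcgr, Nr5a1, Hsd3b1 and Cyp11b1) were below. Of these, Mc2r and Lhcgr had 0 counts and Nr5a1 had 0, 2, 0 and 0. The list summed to 21.4, 14.3, 25.3 and 18.1 TPM. The part of such cells in the Cyp11a1 level was not tested.

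The 3 vitamin D enzymes were below 1 TPM, as were 28.1% of all protein-coding genes. Cyp27b1, which makes the active hormone, stood at 0.376, 0.306, 0.493 and 0.708 TPM (edgeR, adjusted p = 0.0336). Cyp2r1, which makes its precursor, stood at 0.183, 0.651, 0.120 and 0.363 TPM (edgeR, adjusted p = 0.0266). Cyp24a1, which inactivates both forms, stood at 0.109, 0.166, 0.499 and 0.135 TPM (edgeR, adjusted p = 0.00823), with library 3 apart from the other 3. Calls of 2 of the 3 changed when a library was left out. That of Cyp27b1 was lost without library 1, 2 or 3 (adjusted p = 0.0922, 0.0890 and 0.0761), and that of Cyp2r1 without library 1, 3 or 4 (adjusted p = 0.0723, 0.0720 and 0.0703). Cyp24a1 shares 2.33% of its exon bases with Pfdn4 on the opposite strand, which had 884 to 1266 counts, and these libraries keep no strand.

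P450 enzymes depend on redox partners and on haem. Of 12 redox partners 11 were above 1 TPM (91.7%, against 63.8% of all protein-coding genes) and none below. The haem-binding membrane protein Pgrmc1 was the highest at 357 ± 17.3 TPM (SD, n = 4), and the ferredoxin Fdx2 the lowest and not called, at 0.853 ± 0.381 TPM. Por stood at 101 to 123 TPM, and the mitochondrial chain of Fdx1 and Fdxr at 12.7 to 15.9 and 18.5 to 28.7 TPM; these 3 genes were chosen after their values were seen. Of 9 haem synthesis genes 8 were above 1 TPM (88.9%, against the same 63.8%), and only the red cell form of the entry enzyme, Alas2, was below. All 4 haem breakdown genes were above (again against 63.8%), with Hmox1 the highest at 208 ± 35.4 TPM (SD, n = 4).

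**Figure D3:**
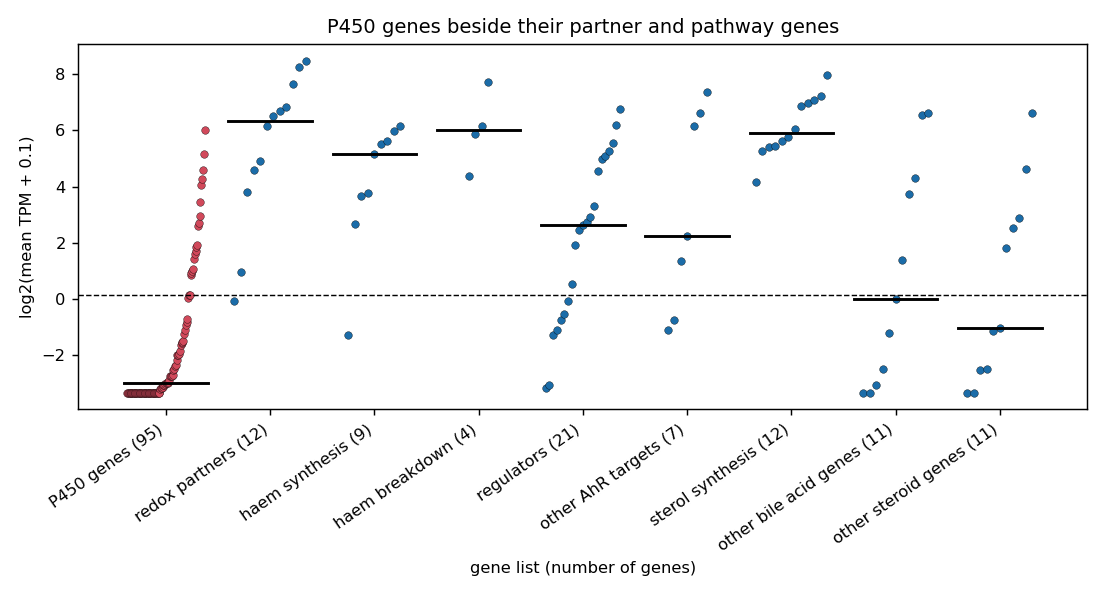
Each point is 1 gene at log2(mean TPM + 0.1), ordered within its list, with the number of genes in brackets; black bars are list medians and the dashed line is 1 TPM. The 95 P450 genes have a median near 0 TPM, while the medians of the redox partner, haem and sterol synthesis lists lie between 35.9 and 80.8 TPM.

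Of 21 listed regulators of P450 genes 13 were above 1 TPM (61.9%), a share near the 63.8% of all protein-coding genes, while 5 were below and 3 not called. The highest was Nr0b1, a repressor of steroid genes that embryonic stem cells also make, at 108 ± 15.5 TPM (SD, n = 4). Nr5a1, the activator of steroid genes in adrenal and gonad, was the lowest at 0.0116 TPM, while its relative Nr5a2 stood at 27 to 35.5 TPM. The drug receptors Nr1i3 and Nr1i2 were below 1 TPM, at 0 to 0.0438 and 0.154 to 0.909 TPM, and the liver factor Hnf4a was above, at 3.90 to 7.35 TPM. Nr5a2, both drug receptors and Hnf4a were chosen after their values were seen. Of 7 other listed AhR-linked genes 5 were above 1 TPM (71.4%, near the same 63.8%) and 2 below. They ran from Nqo1 at 166 ± 37.1 TPM to Ugt1a6a at 0.370 ± 0.196 TPM (SD, n = 4).

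No member was called different in 1 library against the other 3. In each of these comparisons edgeR's quasi-likelihood test called 0 of the 21 members tested at adjusted p under 0.05, beside 0% of the 17398 genes tested, and DESeq2 also called 0 members, beside 0.0357%, 0.204%, 0.0102% and 0.0102% of 39251 genes for libraries 1 to 4. At an unadjusted p under 0.05, 1 of the 21 members passed in library 1, beside 5.32% of all genes tested, and 1 in library 2, beside 7.38%, and it was Cyp1b1 both times. In libraries 3 and 4 no member passed, beside 1.57% and 1.55%. These counts are no larger than the shares of all genes give. Its log2 ratio was -0.92 in library 1 (edgeR, adjusted p = 0.723) and 0.79 in library 2 (edgeR, adjusted p = 0.626). With 1 further library left out, a lone library without a replicate stands against 2, and many genes were then called. Cyp1b1 was among them in library 1 without library 3, beside 12.4% of all genes tested, and in library 2 without library 4, beside 14.4%. It was also among them in library 3 without library 1, beside 7.35%, and in library 4 without library 2, beside 7.8%. Cyp4f39 was called in the first 2 of these cases. Nothing about the members is read from these calls.

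Spread between cultures was close to that of other genes of the same level. Over the 19 members with a mean of at least 1 CPM (level scaled for library size alone), the median SD of log2(CPM + 1) was 0.214, beside 0.202 for 8426 genes within the same range of means, and 10 of the 19 lay above the latter. With this scaling the largest SD belonged to Cyp4f39 (0.505), then Cyp1b1 (0.499), and the smallest to Cyp46a1 (0.0700). The order depends on the setting: Cyp1b1 was first with TMM scaling (0.553) and without library 4 (0.589), and Cyp4f14 without library 1 (0.457). The smallest SD was that of Cyp4f17 with TMM scaling (0.0754), of Cyp21a1 without library 1 and of Cyp2u1 without library 2. Cyp1b1 and Cyp4f39 ran in opposite order, with Cyp1b1 lowest in library 1 and highest in library 2 and Cyp4f39 the reverse.

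Some marker sums had the same order over the 4 libraries as these genes, while the rest did not. The order of Cyp1b1, from library 1 through 3 and 4 to 2, was also that of the parietal endoderm sum, of the hepatocyte sum and of the endothelial sum (88.5, 128, 95.8 and 124 TPM, with 6 of 7 markers above 1 TPM). The pluripotency sum had the order of Cyp4f39. The fibroblast sum, with 9 of 10 markers above 1 TPM, was 1691, 3711, 1481 and 2541 TPM and had neither order. The visceral endoderm, trophoblast, cholangiocyte, leukocyte, intestine, and adrenal or gonad sums had neither order as well. Ahr, the receptor that induces Cyp1b1, stood at 5.22, 13.6, 9.05 and 11.2 TPM, also in the order of Cyp1b1. Of the 7 other listed AhR-linked genes, only Tiparp had this order, at 53.4, 100, 65.7 and 67.0 TPM. Nqo1, Ahrr and Aldh3a1 were lowest in library 2, as was Cyp1a1, and Ugt1a6a, Ugt1a6b and Nfe2l2 had other orders. Ahr, Tiparp, Ahrr, Aldh3a1, Ugt1a6b and Nfe2l2 were chosen after their values were seen. The part of these cell types and of Ahr in the Cyp1b1 and Cyp4f39 levels was not tested.

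**Figure D4:**
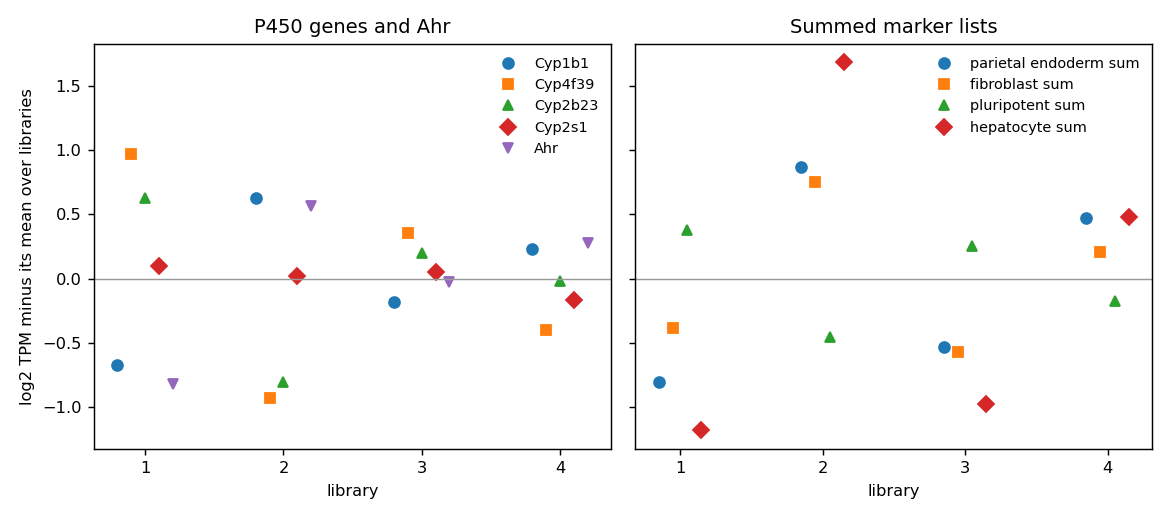
Deviations of log2 TPM from each gene's or list's mean over the 4 libraries, with P450 genes and Ahr on the left and summed marker lists on the right; the horizontal position within a library only separates the symbols. Cyp1b1 and Ahr lie lowest in library 1 and highest in library 2, as do the parietal endoderm markers, while Cyp4f39 and Cyp2b23 show the reverse and Cyp2s1 stays near 0.

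The sequence just before the start of each gene was read next, as a description without a test. RefSeq promoters (mouse build GRCm38.p6, not the files' own build GRCm39) were matched to 72 of the 95 members and to 15321 protein-coding genes, and the 250 bases before the start were read. Shown here are the promoters of the 2 highest members, Cyp20a1 and Cyp1b1, beside those of 2 liver genes with 0 or few counts, Cyp2e1 and Cyp2c29. Each is written 5′ to 3′ along the gene, and capitals mark the dinucleotide CG (CpG), which is dense in promoters of broadly used genes.

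Cyp20a1 promoter, chr1:60343050-60343299, plus strand: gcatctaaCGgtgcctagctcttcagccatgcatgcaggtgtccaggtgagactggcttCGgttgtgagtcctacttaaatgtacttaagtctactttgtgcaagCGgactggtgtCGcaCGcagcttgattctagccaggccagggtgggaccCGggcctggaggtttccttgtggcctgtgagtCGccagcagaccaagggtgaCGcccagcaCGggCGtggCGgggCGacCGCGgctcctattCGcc

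Cyp1b1 promoter, chr17:79715062-79715311, minus strand: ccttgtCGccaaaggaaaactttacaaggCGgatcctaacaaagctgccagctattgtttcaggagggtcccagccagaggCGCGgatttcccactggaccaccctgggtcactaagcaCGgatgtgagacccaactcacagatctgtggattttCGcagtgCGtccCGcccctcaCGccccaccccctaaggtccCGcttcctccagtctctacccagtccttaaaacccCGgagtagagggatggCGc

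Cyp2e1 promoter, chr7:140763569-140763818, plus strand: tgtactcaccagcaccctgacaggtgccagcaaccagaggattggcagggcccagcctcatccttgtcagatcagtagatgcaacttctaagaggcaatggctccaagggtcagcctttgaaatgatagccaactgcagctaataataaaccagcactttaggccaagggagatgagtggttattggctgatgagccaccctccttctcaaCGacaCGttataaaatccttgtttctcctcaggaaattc

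Cyp2c29 promoter, chr19:39286835-39287084, plus strand: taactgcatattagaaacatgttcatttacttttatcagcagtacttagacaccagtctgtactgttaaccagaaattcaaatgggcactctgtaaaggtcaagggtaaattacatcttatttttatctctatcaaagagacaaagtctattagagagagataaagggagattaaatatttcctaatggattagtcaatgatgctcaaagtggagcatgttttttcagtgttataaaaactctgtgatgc

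These 4 windows hold 15, 12, 2 and 0 CpG. The ratio of observed to expected CpG is 0.663 for Cyp20a1 and 0.588 for Cyp1b1, against 0.135 for Cyp2e1 and 0 for Cyp2c29. A window counted as CpG-rich at a GC content of 50% or more and a ratio of 0.6 or more. By that rule 5 of 72 P450 promoters (6.94%) were CpG-rich, against 46.4% of all protein-coding genes. The median ratio was 0.385 for members called above 1 TPM and 0.140 for those called below. Over all genes so called the medians also differed, at 0.729 and 0.208. Among members called above 1 TPM the CpG-rich share was 4 of 13 (30.8%), beside 63.2% of all genes so called, and among those below it was 1 of 55 (1.82%), beside 10.8%. The 4 are Cyp20a1, Cyp2s1, Cyp46a1 and Cyp4v3, and the 1 below is Cyp2r1. Cyp4f16 and Cyp4f13 have ratios of 0.10 and 0.172. No entry was matched for Cyp4f17, Cyp39a1, Cyp7b1, Cyp2d22 and Cyp21a1.

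Short motifs, searched on both strands, were counted as well. TATAAA, the core of the TATA box, was in 27 of 72 P450 windows (37.5%), against 10.2% of all genes. All 27 belong to members below 1 TPM, of which there are 55 with a promoter (49.1%), beside 19.3% of all genes below. Among the 13 members above 1 TPM 0 hold it, beside 6.28% of all genes above. Most of the 27 belong to the Cyp2a, Cyp2c, Cyp2d and Cyp3a subfamilies, whose genes are related, so the matches are not independent. GCGTG, the core that AhR binds, was in 14 of 72 windows (19.4%), against 37.0% of all genes. It was in 7 of the 13 members above 1 TPM (53.8%), near the 45.8% of all genes above. CAAGGTCA, the type of site bound by the Nr5a receptors, was in 0 of 72 windows, against 1.11% of all genes. At so low a share, 0 of 72 does not stand apart. A match to such letters is a description of the window, and a window without them says nothing of the factor.

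CAAAGTCCA, the type of site bound by the liver receptor Hnf4a, was in 11 of 72 P450 windows (15.3%), against 0.405% of all genes. It was in 10 of the 55 members below 1 TPM (18.2%), beside 0.810% of all genes below. Among the 13 members above 1 TPM 0 hold it, beside 0.258% of all genes above. At so low a share, 0 of 13 does not stand apart. The 11 genes are Cyp2c40, Cyp2c65, Cyp2c67, Cyp2c68, Cyp2c69, Cyp2c70, Cyp3a11, Cyp3a16, Cyp3a41a, Cyp3a41b and Cyp8b1. Many are recent copies of each other, so the matches are not independent. The following 5 windows, 1 for each of 5 sets of like flanks, show the match in capitals with 10 bases on either side, on GRCm38.p6 and along the gene.

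Cyp2c40, chr19:39812841-39812869, minus strand: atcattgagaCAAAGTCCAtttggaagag

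Cyp2c65, chr19:39060880-39060908, plus strand: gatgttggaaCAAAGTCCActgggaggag

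Cyp2c70, chr19:40187332-40187360, minus strand: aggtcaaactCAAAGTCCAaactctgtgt

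Cyp3a11, chr5:145879945-145879973, minus strand: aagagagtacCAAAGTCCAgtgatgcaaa

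Cyp8b1, chr9:121916354-121916382, minus strand: agcctctgagCAAAGTCCAagggcaggaa

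The match begins 45, 116, 64, 109 and 67 bases before the start in these genes. None of the 11 was called above 1 TPM, and Cyp2c69, the only one not called below, had 8, 0, 6 and 10 counts. Hnf4a itself was above 1 TPM in all 4 libraries, as given with the regulators. Its binding to these windows and its part in the levels of these genes were not tested.

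**Figure D5:**
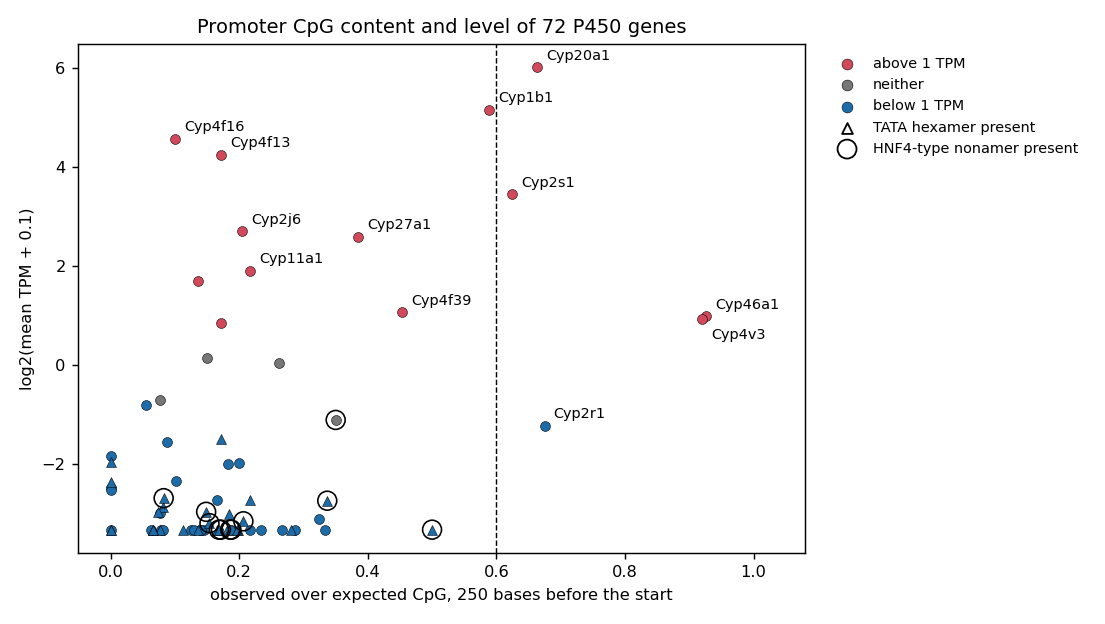
Each point is 1 of 72 P450 genes with a RefSeq promoter, by the ratio of observed to expected CpG in the 250 bases before its start and its level as log2(mean TPM + 0.1); colours give the edgeR call, triangles hold the TATA hexamer and rings mark the Hnf4a-type nonamer. The dashed line is the CpG ratio of 0.6, with 5 genes to its right. No triangle or ring lies among the 13 genes above 1 TPM. Of all genes above 1 TPM, 6.28% hold the hexamer and 0.258% the nonamer, so neither absence stands apart.

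Shared sequence limits some of these values. In 15 members more than 10% of the 100-base stretches of their exons recur in another gene, and a read from there may be assigned to either copy or dropped; the submitters' treatment of such reads is not given in the sources used here. Of these 15, 10 had 0 counts and none was called above 1 TPM. Cyp3a41a and Cyp3a41b share 90.8% and 88.2% of their stretches and had 0 counts, and Cyp2c69 shares 35.4%, mostly with Cyp2c40. Levels of these copies are uncertain.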

How the data were processed

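The submitters deposited raw counts per gene for each library, whole numbers without normalization. Polyadenylated RNA was sequenced from both ends in libraries that keep no strand, per the labels' protocols. STAR, featureCounts and GRCm39 (mm39) are named, per the submitters' processing notes. Versions, options and annotation release were not given in the sources used here. Even values made up 60.0% to 62.6% of the counts from 1 to 8, so both ends of a pair may have been counted.

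From these counts, TPM and CPM were computed with exon lengths of the GENCODE M21 annotation (GRCm38). Of 78028 rows 48817 were matched (48151 by symbol, 51 by ID and 615 by another symbol), holding 98.9% to 99.1% of counts, and 19938 were protein-coding. Libraries 1 to 4 held 37797816, 40154964, 29518642 and 40124479 counts. Levels were tested against 1 TPM with edgeR 4.0.16 (quasi-likelihood, offsets for length and depth, two-sided, Benjamini-Hochberg over all protein-coding genes at 0.05). The F statistic was computed by hand from the deviances, with edgeR's moderated dispersions. Log2 ratios to 1 TPM are those of summed counts to the summed counts expected at 1 TPM. Their SE was derived from the fitted ratio and the F statistic. Each library was compared with the other 3 in edgeR (TMM, filterByExpr), the lone library being assumed to vary like the rest. Spread was the SD of log2(CPM + 1). DESeq2 1.42.0 and limma 3.58.1 (log2(TPM + 0.1), which understates low genes) served as alternatives, beside other scalings, filters, thresholds and left-out libraries. The scripts recovered known changes in simulated counts. R 4.3.3, Python 3.11.15, numpy 2.4.6, pandas 2.3.3 and matplotlib 3.10.9 were used.

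A gene was not detected at 3 counts or fewer in every library, which are 0.0747 to 0.102 CPM. Counting intervals and limits cover counting error only. Members and lists were chosen with earlier results of these data known. Named genes are members at 1 TPM or more in every library, the highest and the 0-count members of each subfamily, all members of the family 1, sterol, steroid and vitamin D lists, the largest and smallest spreads, and the highest and lowest genes of partner lists; 1 gene that this rule names is not reported here. Others are marked, or, among the members, were chosen after their values were seen: Cyp2c29, Cyp2c65, Cyp2c67, Cyp2c69, Cyp2j9, Cyp2t4, Cyp2u1, Cyp3a11, Cyp3a16, Cyp4b1, Cyp4f14, Cyp4f15, Cyp4f18, Cyp4f37, Cyp4f40 and Cyp4x1. Promoters were read from a RefSeq table on GRCm38.p6.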

Additional observations from a re-analysis of the deposited data

Results flagged for a closer look

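In groups of 4 libraries, a library was picked out where its gap to the nearest other was a larger share of the whole range than Dixon's critical value at 95%. This held for 6 of the 41 groups examined. Chance flags about 1 in 20 groups of evenly spread values, a share that does not hold for genes with a few counts in 1 library. Among members called above 1 TPM, Cyp11a1 (side chain cleavage of cholesterol) stood at 4.53 TPM in library 1, above 3.30 to 3.46 TPM in the others, and Cyp4f13 at 21.8 TPM in library 1, above 17.9 to 18.2 TPM. Among low members, Cyp1a1 stood at 0.728 TPM in library 1 from 21 counts, and Cyp24a1 at 0.499 TPM in library 3 from 14 counts. Cyp2a12 reached 0.147 TPM in library 3 and Cyp3a16, a fetal liver gene, 0.222 TPM in library 4, each from 4 counts with 0 counts in the other 3 libraries, so that the gap equals the whole range by construction.

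Signal also appeared in rows outside the 95 members. Of 33 Cyp pseudogene rows 29 had 0 counts in every library, and only Cyp4f41-ps had more than 3 counts in every library, with 35, 33, 31 and 31 counts and so 31 as its lowest. The Cyp4f genes have 5 of 9 members above 1 TPM, and a share of its counts from their transcripts was not tested.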

How the results depend on the processing

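The count of members above 1 TPM stayed between 13 and 22 over all alternatives and between 16 and 18 with 1 library left out. The count below, 71, was 12 when only genes with 10 or more counts were tested, which leaves 36 members, and 30 in DESeq2, which gives no value to genes at 0; with 1 library left out it was 67 to 69. The summed level was 425 TPM with Cyp51, the Cyp26 genes, Tbxas1 and Ptgis added. Without a low-count filter, 1 member (Cyp1b1) was called in library 1 and 1 (Cyp1b1) in library 2. With a further library left out, the number called ranged from 0 to 2 in libraries 1 and 2 and from 0 to 1 in libraries 3 and 4. The median SD was 0.252 on log2(CPM + 0.1), 0.171 over members of at least 0.1 CPM, and 0.195 to 0.224 with 1 library left out. Against 2 TPM in place of 1 TPM, the log2 ratios of Cyp46a1 (-0.065), Cyp4f14 (-0.28), Cyp4f39 (-0.012) and Cyp4v3 (-0.13) changed sign, as the raised threshold lies above their means. Cyp4f14 and Cyp4f39 were not called with CPM in place of TPM (adjusted p = 0.686 and 0.0871, edgeR) or by limma (adjusted p = 0.148 and 0.115). No paired analysis was possible because there is a single group. Depth limits the low members: 1 TPM corresponds to 7.89 to 10.4 counts per kilobase of exon. A gene at 0 counts in the libraries kept has no log2 ratio and so no value there.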

Other observations

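P450 enzymes outside the 95 members were read as well. Cyp26a1 and Cyp26b1, which break down retinoic acid, were called above 1 TPM by edgeR's quasi-likelihood test. Cyp26a1 stood at 7.46, 30.7, 15.6 and 19.6 TPM and Cyp26b1 at 2.20, 4.26, 3.39 and 3.26 TPM, both lowest in library 1 and highest in library 2. Cyp26c1 was below 1 TPM at 0.311 ± 0.258 TPM (SD, n = 4). Ptgis, the prostacyclin synthase, was above 1 TPM at 17.7, 25.2, 18 and 21.5 TPM, and Tbxas1, the thromboxane synthase, was below at 0.0308 ± 0.0292 TPM (SD, n = 4). These genes and Cyp51, 6 in all, summed to 203 ± 30.2 TPM (SD, n = 4), beside 222 ± 18.7 TPM for the 95 members.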
